A study of Mus musculus with 32 samples.

Results

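The comparison described here is between multipotent progenitors (MPP) and haematopoietic stem cells (HSC) of mice with Mx1-Cre and Jak2V617F, without Jarid2 deletion. It was taken by label and rests on 4 RNA-seq libraries, 2 of MPP and 2 of HSC, among 24 RNA-seq libraries and 32 samples in the series. All mice were C57BL/6. Per the labels the Mx1 mice were 10 weeks old and 2 months past treatment with pIpC, a synthetic double-stranded RNA that induces interferon and with it the Mx1 promoter that drives Cre, so that recombination is not limited to blood cells. Both populations were sorted from marrow as lineage-negative, cKit+, Sca1+ and CD48-, with CD150 on HSC and not on MPP, each library from pooled males and females. Other libraries of the series are used beside these. Mx1-Cre controls of wild-type genotype (2 HSC, 2 MPP) and Mx1-Cre Jak2V617F with Jarid2KO, called the double mutant below (2 HSC, 2 MPP), had the same age and pIpC label. Vav-Cre controls (3 HSC, 3 MPP), also wild-type and with Cre active across blood cells, were 8 weeks old. For 1 Mx1 group the series text names Jarid2KO without Jak2V617F, a combination that no Mx1 sample label gives, and groups were taken from the samples.

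Stem cells and multipotent progenitors sit at the top of blood formation: HSC renew themselves for life, and MPP have lost most of that capacity but still give rise to all blood lineages. JAK2 is the tyrosine kinase behind the receptors for erythropoietin and several myeloid cytokines, and it acts largely through the transcription factor STAT5. The V617F change makes the kinase active without cytokine, and in marrow it is known for driving excess red cells, platelets and granulocytes. The comparison asks which genes mark the step from HSC to MPP when the kinase is active.

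Before any contrast, the 4 libraries differed in RNA of another tissue. A list of 20 heart muscle genes, led by Ttn (the sarcomere spring titin) and Myh6 (cardiac myosin heavy chain), held 0.812% of counts in HSC replicate 1. The same list held 6.08% in HSC replicate 2, 8.01% in MPP replicate 1 and 7.29% in MPP replicate 2. HSC replicate 1 was thus low and the other 3 libraries high. Over the 12 Mx1 libraries, 6 were low, at 0.525% to 1.21%, and 6 high, at 6.08% to 9.29%, while in the Vav controls the summed level of the list was 13.5 to 33.3 CPM (counts scaled to library total). Genes of collagen, vessel and stroma moved the same way, with a summed level of 789 CPM in HSC replicate 1 and 5189, 6991 and 6400 CPM in HSC replicate 2 and MPP replicates 1 and 2. A list of 10 liver genes stayed at a summed 2.47 to 9.40 CPM in all 4 libraries. Depth was 16168351 and 11698573 counts for HSC replicates 1 and 2, and 11938876 and 10765232 for MPP replicates 1 and 2. The share of counts in mitochondrial genes was 1.49%, 4.96%, 5.95% and 5.51% in that order, and it was low in the same library. Ddx3y, a gene of the Y chromosome, was at 9.65 CPM in HSC replicate 1 and at 78.5, 95.9 and 81.7 CPM in the other 3, although every pool is labelled as mixed in sex.

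The blood share of each library moved the opposite way. A list of 20 genes that most blood cells use, such as Ptprc (CD45) and Vav1, summed to 8804 CPM in HSC replicate 1 and 4540 CPM in HSC replicate 2. In MPP replicates 1 and 2 it summed to 3243 and 3592 CPM. Both MPP libraries therefore lay below both HSC libraries in blood RNA, and both lay above both in heart RNA. For this reason counts of genes in lists are given below on 2 scales, CPM and counts per 10000 counts of those 20 pan-blood genes, and single genes in CPM and in part also per pan-blood count. A gene is counted as above or below HSC where both MPP libraries lie on that side of both HSC libraries. Among all genes tested, 24.4% lay above and 20.9% below in CPM, and 51.9% above and 3.03% below per pan-blood count. The pan-blood genes were not level between the cell types in Vav controls, with a summed 6150 to 7254 CPM in HSC and 8410 to 8996 CPM in MPP. Their median log2 fold change of MPP over HSC there was 0.35. The pan-blood scale can thus carry a cell type difference of its own. In bulk samples, fewer cells of a type and less RNA per cell cannot be told apart. Per pan-blood count, 29.9% of all genes rose in the order of the heart share over the 4 libraries and 0.632% fell; in CPM 11.9% rose and 10.6% fell. The part of heart RNA in single differences was not tested beyond a term for high and low libraries in the fit and a contrast within the high libraries.

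**Figure D1:**
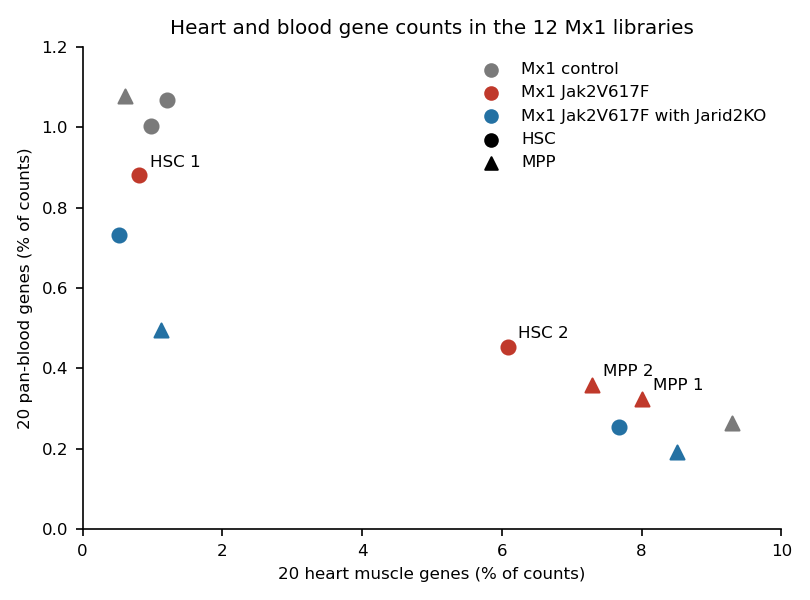
Share of counts in 20 pan-blood genes (vertical axis, % of counts) against the share in 20 heart muscle genes (horizontal axis, % of counts) for the 12 Mx1 libraries, 1 point each; circles are HSC and triangles MPP. Jak2V617F HSC replicate 1 sits at 0.812% heart with the low libraries, and the other 3 Jak2V617F libraries lie between 6.08% and 8.01%.

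The genes behind the sort gate were checked next, and they did not separate the 4 libraries as the labels do. Slamf1, which encodes CD150 and should be present on HSC alone, was at 12.7 and 5.04 CPM in the HSC libraries and at 1.09 and 6.22 CPM in the MPP libraries, from 205, 59, 13 and 67 counts. The groups overlapped, and the log2 fold change of MPP over HSC was -0.75 with a standard error (SE) of 1.31 (n = 2 and 2; edgeR quasi-likelihood test, adjusted p = 1.0). In Vav controls Slamf1 was at 62.5 ± 4.57 CPM (SD, n = 3) in HSC and 4.38 ± 0.90 CPM (SD, n = 3) in MPP, and in double-mutant HSC it was at 30.8 and 124 CPM against 8.15 and 6.75 CPM in double-mutant MPP. In Mx1 controls Slamf1 overlapped as in Jak2V617F, at 0.196 and 5.21 CPM in HSC and 6.95 and 3.77 CPM in MPP.

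Cd48, absent from the surface of both gated populations, was at 123 and 93.7 CPM in Jak2V617F HSC and at 41.6 and 60.7 CPM in MPP. Both MPP libraries lay below both HSC libraries in CPM, but not per pan-blood count, where the values were 140, 206, 128 and 169. In Vav controls the level was 10.3 ± 3.98 CPM (SD, n = 3) in HSC and 34.6 ± 12.6 CPM (SD, n = 3) in MPP, the opposite order. Mx1 controls were at 122 and 133 CPM in HSC and at 127 and 37.4 CPM in MPP. Double mutants were at 13.9 and 20.2 CPM in HSC and at 38.8 and 55.5 CPM in MPP. Kit, the stem cell factor receptor, was at 390 and 284 CPM in HSC and at 184 and 150 CPM in MPP. Its groups did not overlap in CPM and did overlap per pan-blood count, at 443, 625, 567 and 418. Ly6a, which encodes Sca1, was at 7.05 CPM in HSC replicate 1 and at 48.4, 44.7 and 44.3 CPM in HSC replicate 2 and MPP replicates 1 and 2. In these 4 libraries it thus followed the high and low heart libraries and not the cell type. Ly6a was also highest in the high heart Mx1 control, at 63.4 CPM against 8.5, 13.3 and 6.71 CPM in the low ones. In double mutants the high heart library was the lower one in CPM, at 78.2 against 150 in HSC and 122 against 190 in MPP. It was the higher one per pan-blood count, at 308 against 204 in HSC and 636 against 383 in MPP. HSC and MPP are used below as the names on the labels.

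**Figure D2:**
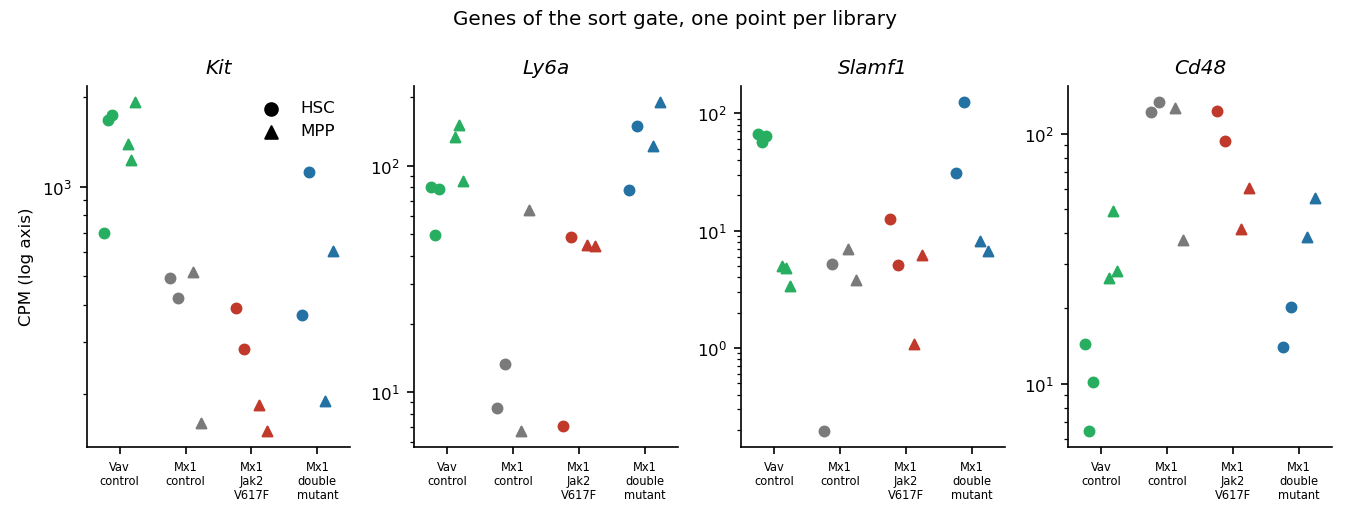
CPM (log axis) of the 4 genes of the sort gate, 1 point per library, circles for HSC and triangles for MPP, in Vav controls (3 and 3 libraries) and in Mx1 controls, Mx1 Jak2V617F and Mx1 double mutants (2 and 2 each). Slamf1 is above all MPP libraries in each HSC library of the Vav control and of the double mutant, while the Jak2V617F circles (12.7 and 5.04 CPM) and triangles (1.09 and 6.22 CPM) overlap. Those of the Mx1 control overlap too.

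Jak2 itself is no check of the mutation, since counts per gene do not show the altered base. It was at 34.0 and 43.6 CPM in HSC and 37.9 and 47.2 CPM in MPP, with overlapping groups and a log2 fold change of 0.02 (SE 0.39). Jarid2, an accessory subunit of the Polycomb repressive complex PRC2 and not deleted in these mice, was at 51.5 and 63.5 CPM in HSC and 55.9 and 69.1 CPM in MPP. Its groups overlapped too, with a log2 fold change of 0.25 (SE 0.35).

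Across 19616 genes tested, no gene passed an adjusted p of 0.05 in MPP against HSC (0%; edgeR quasi-likelihood test with a term for the high and low heart libraries), and 284 genes (1.45%) had an unadjusted p under 0.05. Other tools called 1 gene (the DESeq2 Wald test) and 0 genes (limma-voom). Without the heart term edgeR called 0 genes, and leaving out HSC replicate 2 gave 5. In the same edgeR fit the Mx1 controls gave 0 genes, with 1113 (5.67%) at an unadjusted p under 0.05. The counts of other tools for the Mx1 controls are not reported here. The double mutant gave 42 genes (0.214%), with 5.02% at an unadjusted p under 0.05. Spread between replicates was wide, with a biological coefficient of variation of 0.556 with the heart term and 0.786 without it, against 0.337 in the Vav fit. For a single value, 2 libraries against 2 cannot give an exact permutation p under 0.333.

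The smallest p belonged to Chrnb1 (chr11:69784036-69795943, mm10), a subunit of the muscle acetylcholine receptor. It was at 0.12 and 0.34 CPM in HSC, from 2 and 4 counts, and at 5.28 and 11.05 CPM in MPP, from 63 and 119 counts. The groups did not overlap, and the log2 fold change was 5.12 (SE 0.99; edgeR adjusted p = 0.198, n = 2 and 2). In the other 8 Mx1 libraries Chrnb1 lay between 5.00 CPM in a control HSC library and 14.3 CPM in a double-mutant HSC library, so the 2 Jak2V617F HSC libraries were the low ones. It was named after its values were seen, and it did not pass within the high heart libraries either (log2 fold change 4.56, SE 1.15; edgeR adjusted p = 0.0515).

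Granule genes of neutrophil precursors were abundant in all 4 libraries, and whether they differed between HSC and MPP depended on the scale. Mpo (myeloperoxidase), Elane (neutrophil elastase) and Prtn3 (proteinase 3) are packed into the primary granules of promyelocytes, and their transcription depends on the factor PU.1, whose binding core is GAGGAA. Their promoters are shown because the 3 genes had the 4 libraries in the same order in CPM, falling as the heart share rises. Of the 20 granulocyte and monocyte genes 14 had that order, these 3 among them. So did 10 of the 20 pan-blood genes and 10.6% of all genes. Whether the 3 genes share regulation here was not tested. Each is the RefSeq sequence (GRCm38.p6) of 300 bases, 250 before and 50 after the gene start, on the + strand: chr11:87793534-87793833 for Mpo, chr10:79886062-79886361 for Elane and chr10:79879417-79879716 for Prtn3. All 3 genes had an entry. Capitals mark GAGGAA, searched on both strands, which 28.3% of the 32851 promoters in the table hold; a match is a description of the letters only.
Mpo promoter: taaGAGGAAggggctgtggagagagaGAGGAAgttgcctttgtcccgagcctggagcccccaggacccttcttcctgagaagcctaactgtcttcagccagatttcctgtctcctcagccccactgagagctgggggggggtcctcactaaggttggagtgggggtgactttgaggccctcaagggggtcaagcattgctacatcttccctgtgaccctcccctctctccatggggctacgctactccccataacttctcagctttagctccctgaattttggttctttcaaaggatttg
Elane promoter: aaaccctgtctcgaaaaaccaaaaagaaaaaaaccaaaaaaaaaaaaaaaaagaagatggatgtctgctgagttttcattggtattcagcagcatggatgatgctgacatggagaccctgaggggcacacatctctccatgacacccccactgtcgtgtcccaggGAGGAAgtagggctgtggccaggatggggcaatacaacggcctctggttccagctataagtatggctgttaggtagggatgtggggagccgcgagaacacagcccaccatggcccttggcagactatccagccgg
Prtn3 promoter: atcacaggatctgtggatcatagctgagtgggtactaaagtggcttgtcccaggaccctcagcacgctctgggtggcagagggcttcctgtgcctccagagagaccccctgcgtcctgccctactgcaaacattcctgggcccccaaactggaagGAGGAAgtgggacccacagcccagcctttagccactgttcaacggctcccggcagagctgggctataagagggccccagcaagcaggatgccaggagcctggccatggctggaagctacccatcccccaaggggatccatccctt

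Mpo was at 9756 and 6113 CPM in HSC and 3391 and 4447 CPM in MPP, and both MPP libraries lay below both HSC libraries. Per 10000 pan-blood counts it was at 11082, 13465, 10458 and 12380, and the groups overlapped. Its log2 fold change was -0.72 (SE 0.91). Elane read 4651, 3115, 1930 and 2677 CPM in HSC replicates 1 and 2 and MPP replicates 1 and 2, and 5283, 6861, 5951 and 7453 per 10000 pan-blood counts. The 2 genes thus fell in CPM with the blood share and overlapped once set against it. Prtn3 followed the same order, at 523, 399, 205 and 353 CPM, with a log2 fold change of -0.28 (SE 0.36). Secondary granule genes, which mark later neutrophil stages, were also abundant: Ngp was at 21177, 9369, 7223 and 8361 CPM and Ltf (lactoferrin) at 10706, 4389, 2905 and 3701 CPM. Per gene length, Mpo was at 2849, 1785, 991 and 1299 RPKM and Kit, a gene of the gate, at 66.9, 48.7, 31.5 and 25.7 RPKM.

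Over the 20 granulocyte and monocyte genes tested, 0 passed in either direction, 15 lay below HSC without overlap in CPM (20.9% of all genes did) and 1 above (24.4% of all genes). Per pan-blood count, 0 lay below (3.03% of all genes) and 2 above (51.9%). The median log2 fold change was -0.53, and -0.31 when libraries were scaled to pan-blood counts, against -0.04 and 0.21 over all genes. Summed per 10000 pan-blood counts, the list stood at 69040 and 77743 in HSC and 72058 and 81012 in MPP, a narrow range in which the groups overlap. The 4 Mx1 controls lay in the same range, at 74400 to 78106, and the double mutants at 4344 to 21729. Vav controls lay at 2191 to 6451 in HSC and 5777 to 7980 in MPP. Each Jak2V617F and Mx1 control library thus lay above each Vav control and double-mutant library; the difference between the Mx1 and Vav cohorts was not tested.

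**Figure D3:**
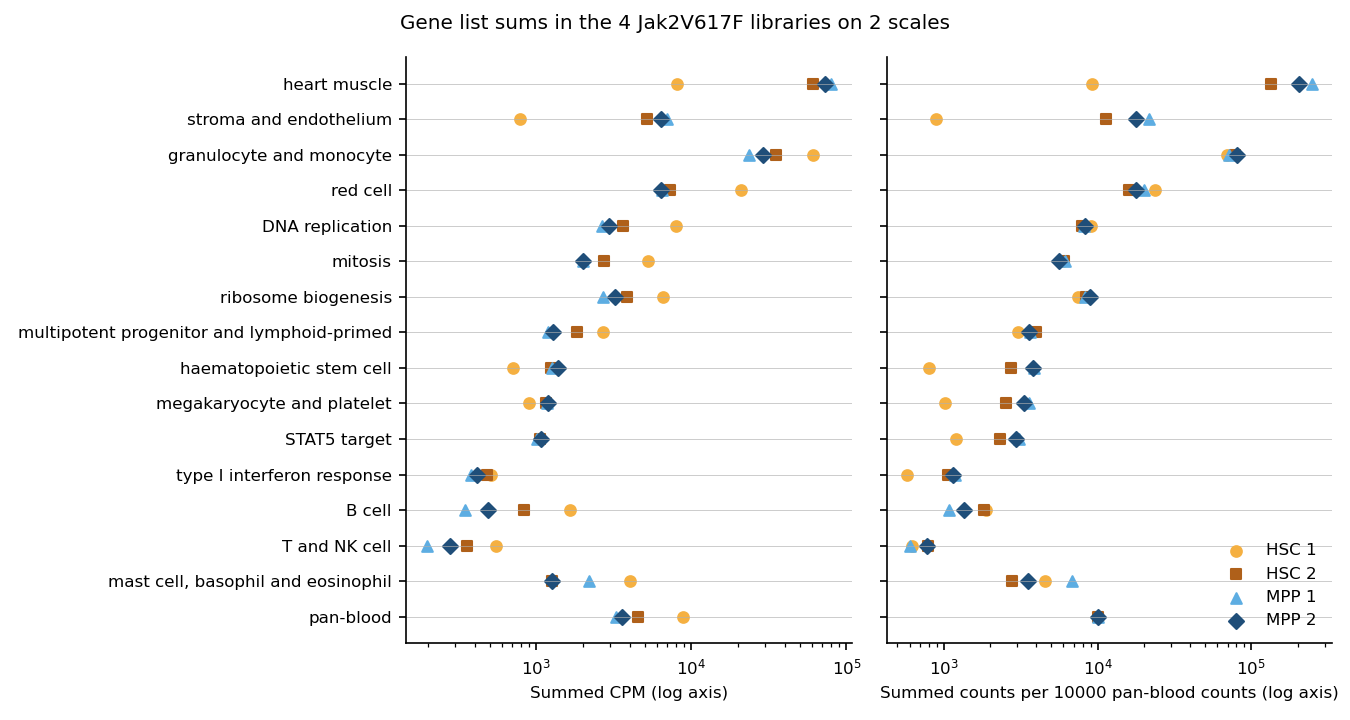
Summed level of 16 gene lists in the 4 Jak2V617F libraries, in CPM (left, log axis) and in counts per 10000 pan-blood counts (right, log axis). Granulocyte, replication, mitosis and ribosome genes spread out on the left and fall together on the right, for example 69040 to 81012 for granulocyte and monocyte genes; heart and stroma genes stay spread on both.

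Cell cycle and growth genes behaved alike. Of 20 DNA replication genes, 0 passed the edgeR test, and 17 lay below HSC and 0 above in CPM (20.9% and 24.4% of all genes). Per pan-blood count 2 lay below (3.03% of all genes) and 4 above (51.9%), so the share below stayed over that of all genes and the share above under it. Rrm2, a subunit of the enzyme that makes deoxynucleotides, was at 1573, 815, 537 and 674 CPM and at 1787, 1794, 1655 and 1878 per 10000 pan-blood counts. The list summed to 9081 and 7978 per 10000 pan-blood counts in HSC and 8140 and 8242 in MPP, so the groups overlapped. Of 20 mitosis genes, 19 lay below HSC and 0 above in CPM (20.9% and 24.4% of all genes), and 4 below and 5 above per pan-blood count (3.03% and 51.9%). Their sums per 10000 pan-blood counts were 5982 and 6049 in HSC and 6147 and 5597 in MPP. Mki67, the proliferation marker Ki-67, was at 429, 241, 174 and 159 CPM, a fitted log2 fold change of -0.30 (SE 0.31). For 20 ribosome biogenesis genes the sums were 7450 and 8434 in HSC and 8260 and 8995 in MPP, and 0 members passed. In CPM 16 lay below and 0 above, and per pan-blood count 1 below and 5 above, again a smaller share above than over all genes.

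Red cell genes were high in HSC replicate 1 alone. The 20 genes summed to 20777 CPM there and to 7306, 6471 and 6356 CPM in HSC replicate 2 and MPP replicates 1 and 2. None passed, and 8 lay below HSC and 0 above in CPM (20.9% and 24.4% of all genes). Per pan-blood count 0 lay below and 7 above (3.03% and 51.9% of all genes), and the sums were 23600, 16093, 19956 and 17697. Car2 (carbonic anhydrase 2) was at 12186, 4436, 3633 and 3828 CPM, and Gata1, the erythroid and megakaryocyte transcription factor, at 445, 116, 109 and 109 CPM. Both genes thus stood out in HSC replicate 1, while HSC replicate 2 lay close to the MPP libraries. Their fitted log2 fold changes were -0.27 (SE 0.34) and -0.08 (SE 0.33).

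Stem cell genes were low in all 4 libraries and did not favour HSC. The 30 genes of the list summed to 703 and 1238 CPM in HSC and 1255 and 1376 CPM in MPP, with Vav controls at 7098 to 7658 CPM in HSC and 5886 to 6305 CPM in MPP. Mx1 controls were as low, at 870.5 to 1319 CPM, and double mutants lay at 2618 to 7648 CPM. Of the 30, 0 passed, and 13 lay above HSC and 3 below in CPM (24.4% and 20.9% of all genes). Per pan-blood count 23 lay above and 0 below (51.9% and 3.03% of all genes). Of the fitted log2 fold changes 24 were above 0, with a median of 0.48. Within the 3 high heart libraries 15 of 30 were above 0, with a median of 0.05. Mecom, a factor needed for stem cell maintenance, was at 5.57 CPM in HSC replicate 1 and 23.8, 26.5 and 23.4 CPM in the others. Procr (the protein C receptor CD201) was at 1.11, 4.02, 3.02 and 3.44 CPM, against 106 ± 14.1 CPM (SD, n = 3) in Vav control HSC. Clu (clusterin) and Vwf (von Willebrand factor) mark platelet-biased HSC, and both were higher in the high heart libraries, Clu at 30.6, 215, 282 and 260 CPM and Vwf at 26.2, 78.6, 85.4 and 99.7 CPM. Of 24 megakaryocyte and platelet genes, 0 passed, 7 lay above HSC and 7 below in CPM, and 11 above and 1 below per pan-blood count. These shares are near those of all genes (24.4% and 20.9% in CPM, 51.9% and 3.03% per pan-blood count), and the median log2 fold change was -0.09. The part of the high heart libraries in the values of Clu and Vwf was not tested.

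For progenitor and lymphoid-primed genes the tally depended on the scale. Of 23 tested, 0 passed, and 3 lay above HSC and 13 below in CPM (24.4% and 20.9% of all genes). Per pan-blood count 6 lay above and 1 below (51.9% and 3.03% of all genes). The median log2 fold change was -0.45, and -0.19 when scaled to pan-blood counts, against -0.04 and 0.21 over all genes. Flt3, the receptor that marks the loss of stem cell potential, was at 58.8 and 33.6 CPM in HSC and 25.7 and 22.9 CPM in MPP, lower in both MPP libraries. Per pan-blood count the Flt3 values were 66.8, 74.0, 79.3 and 63.9, and the groups overlapped. In Vav controls Flt3 was at 47.2 ± 21.1 CPM (SD, n = 3) in HSC and 492 ± 87.9 CPM (SD, n = 3) in MPP, a log2 fold change of 3.33 (edgeR adjusted p = 0.000419). Dntt, the terminal transferase of lymphoid precursors, was at 149, 52.3, 49.4 and 61.9 CPM in the Jak2V617F libraries and also overlapped.

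The genes that separate HSC from MPP in Vav controls gave the same picture. There, 185 of 15818 genes (1.17%) passed the edgeR test. In MPP, 81 (0.512%) were higher and 104 (0.657%) were lower, and leaving out each of the 6 control libraries in turn gave 61 to 102 genes. These counts come from mice of another age and Cre line in a separate fit. Of the 81 genes higher in Vav control MPP, 0 passed in Jak2V617F, and 7 lay above HSC and 35 below in CPM (24.4% and 20.9% of all genes). Per pan-blood count the balance turned, with 32 above and 7 below (51.9% and 3.03% of all genes). Their median log2 fold change was -0.28, with 55 of 81 below 0. Of the 104 genes lower in Vav control MPP, 0 passed, and 43 lay above HSC and 11 below in CPM. Per pan-blood count 70 lay above and 1 below, read against the same shares of all genes. The median was 0.28, with 71 of 104 above 0. Both medians had the sign opposite to that in Vav controls (1.70 and -1.91). Scaled to pan-blood counts they were -0.06 and 0.53, against 0.21 over all genes, and within the high heart libraries they were -0.18 and 0.21. In the double mutant, fitted with the same heart term, the medians were 0.38 and -0.98, the signs of the Vav controls, and in Mx1 controls they were -0.33 and -0.08. Of the 104, 20 rose in the order of the heart share in CPM (11.9% of all genes did), and their summed level was lowest in the low heart library, at 2071 CPM in HSC replicate 1 and 4576, 5605 and 5296 CPM in HSC replicate 2 and MPP replicates 1 and 2.

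**Figure D4:**
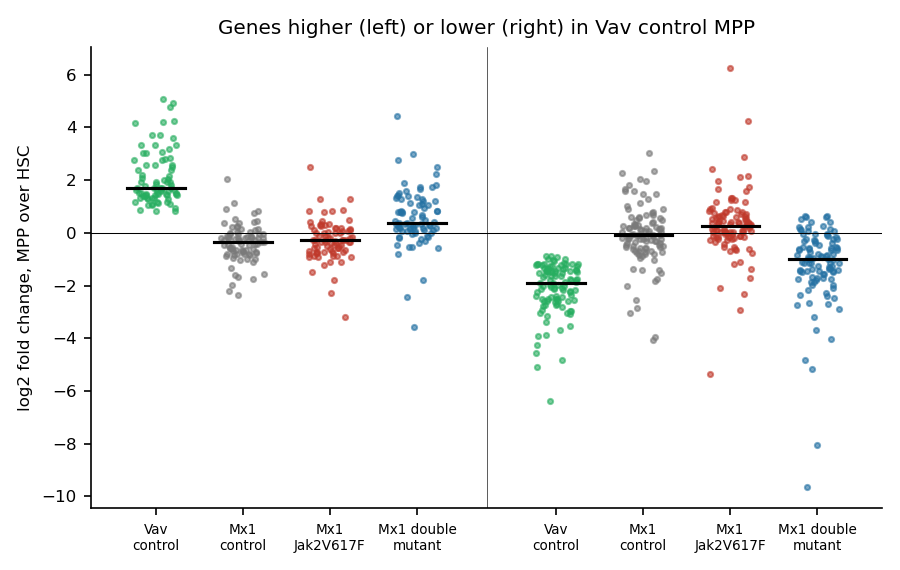
Log2 fold change of MPP over HSC (vertical axis) for genes past the edgeR test in Vav controls, 81 higher in MPP (left) and 104 lower (right), 1 point per gene and a bar at the median, in Vav controls, Mx1 controls, Mx1 Jak2V617F and Mx1 double mutants. The Jak2V617F medians are -0.28 and 0.28; those of the double mutant are 0.38 and -0.98. The Vav values chose the genes.

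Signalling genes of the JAK2 pathway were examined as receptors and then as targets. Of 15 receptor and kinase genes coupled to JAK2, 0 passed, 4 lay above HSC and 4 below in CPM, near the shares of all genes (24.4% and 20.9%), and the median log2 fold change was 0.02. Per pan-blood count 8 lay above and 1 below (51.9% and 3.03% of all genes). Csf2rb, the shared receptor chain for GM-CSF, interleukin-3 and interleukin-5, was at 205, 88.0, 57.6 and 67.5 CPM, and Epor, the erythropoietin receptor, at 42.4, 12.6, 9.38 and 13.2 CPM. For Csf2rb both MPP libraries lay below both HSC libraries in CPM and per pan-blood count, at 233, 194, 178 and 188, with a log2 fold change of -0.55 (SE 0.35) that did not pass.

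Of 15 STAT5 target genes, 0 passed, 5 lay above HSC and 1 below in CPM (24.4% and 20.9% of all genes), and the median was 0.12. Per pan-blood count 10 lay above and 0 below (51.9% and 3.03% of all genes). The feedback inhibitors Cish and Socs2 were among those above. Cish, which blocks STAT5 docking at the receptor, was at 20.4 and 21.5 CPM in HSC and 41.9 and 32.3 CPM in MPP, without overlap, a log2 fold change of 0.80 (SE 0.52) that did not pass. Socs2, a related inhibitor, had 109 and 219 counts in HSC and 366 and 323 in MPP, or 7.66, 41.2, 94.5 and 83.5 per 10000 pan-blood counts, without overlap, a log2 fold change of 0.85 (SE 0.51), and did not pass either. Among Mx1 controls Cish and Socs2 were also higher in the high heart MPP library, at 30.4 and 25.3 CPM, than in the 3 low heart libraries, at 5.07 to 16.6 and 4.90 to 6.46 CPM. In Vav controls both were lower in MPP. Cish was at 42.9 ± 2.63 CPM in HSC and 31.7 ± 2.54 CPM in MPP (SD, n = 3). Socs2 was at 45.6 ± 5.9 CPM in HSC and 20.7 ± 2.79 CPM in MPP (SD, n = 3; edgeR adjusted p = 0.0227). The log2 fold change of Socs2 in the double mutant was -0.61, and that of Cish is not reported here. Pim1, a kinase induced by STAT5, overlapped at 139, 118, 113 and 151 CPM. Of 25 genes of the type I interferon response, which pIpC induces, 0 passed. In CPM 2 lay above HSC and 5 below (24.4% and 20.9% of all genes). Per pan-blood count 7 lay above and 0 below (51.9% and 3.03% of all genes). The 25 genes summed to 508 and 482 CPM in HSC and 381 and 412 CPM in MPP. Their sums per pan-blood count were 577, 1062, 1175 and 1146. Of the groups with the same pIpC label, Mx1 controls summed to 386 to 522 CPM and double mutants to 750 to 1702 CPM. Vav controls, which had no pIpC label, summed to 1516 to 2116 CPM.

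PRC2, the complex that places the repressive mark H3K27me3 and that Jarid2 helps to recruit, had no gene past the test. Of its 12 genes, 1 lay above HSC and 3 below in CPM (24.4% and 20.9% of all genes), and 8 above and 0 below per pan-blood count (51.9% and 3.03%), with a median log2 fold change of -0.10. Ezh2, its methyltransferase, was at 167, 99.2, 69.4 and 66.1 CPM, below HSC in both MPP libraries, and at 190, 218, 214 and 184 per 10000 pan-blood counts, where the groups overlapped. Imprinted genes, of which 17 of 20 were tested, had 9 above HSC and 0 below in CPM (24.4% and 20.9% of all genes), with 0 passing and a median of 0.38. Per pan-blood count 15 lay above and 0 below (51.9% and 3.03% of all genes). H19, an imprinted RNA also abundant in muscle, was at 13.1, 89.8, 111 and 109 CPM and followed the high and low heart libraries.

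HSC replicate 2 was then compared with both MPP libraries, in a fit of the 6 Mx1 libraries high in heart RNA. The heart share still differed within this contrast, at 6.08% in HSC replicate 2 and 8.01% and 7.29% in MPP. All 19 heart genes tested had a log2 fold change above 0, with a median of 0.36. Of 15 stroma and vessel genes 14 were above 0, with a median of 0.39, against 0.05 over all genes. In edgeR, 24 of 19608 genes (0.122%) met the threshold. MPP had the higher level for 15 of them (0.0765%) and the lower for 9 (0.0459%). This contrast has 1 HSC library and 1 residual degree of freedom, from the MPP pair, so the HSC library is assumed to vary like the MPP libraries. In CPM, both MPP libraries lay above both HSC libraries for 24.4% of all genes and below for 20.9%. Those shares are not limited to genes picked on HSC replicate 2, as the next counts are. HSC replicate 1 is also the low heart library, and the part of heart RNA in the next counts was not tested. HSC replicate 1, which the contrast did not use, lay on the HSC side of both MPP libraries for 14 of the 15 higher genes and 5 of the 9 lower ones. Of the 24, 7 were immunoglobulin genes or the immunoglobulin joining chain Jchain, 6 of them lower in MPP. Reads of such segments can be shared between near-identical copies, so single segments are uncertain.

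Among the genes higher in MPP was Prss34, 1 of 12 mast cell, basophil and eosinophil genes and the only one of them past the test here. Prss34 (chr17:25298394-25300161, mm10), the basophil protease Mcpt11, was at 39.4 and 16.6 CPM in HSC and 274 and 167 CPM in MPP. The groups did not overlap on either scale, and the log2 fold change was 3.76 (SE 0.29; edgeR adjusted p = 4.06e-33) within the high libraries and 3.81 (SE 1.93) over all 12, where it did not pass. Mcpt8, another basophil protease, was at 21.7 and 16.5 CPM in HSC and 51.5 and 50.1 CPM in MPP, without overlap, and passed in neither fit. Fcer1a, a chain of the IgE receptor of mast cells and basophils, was at 8.47, 0.94, 6.37 and 11.2 CPM and overlapped, since HSC replicate 1 was not low. The eosinophil granule genes Prg2, at 2565, 816, 1283 and 696 CPM, and Epx, at 1121, 227, 425 and 189 CPM, overlapped as well. In Mx1 controls Prss34 ranged from 95.1 to 586 CPM and in double mutants from 1.00 to 27.6 CPM, so its spread between libraries of 1 genotype was wide.

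Immunoglobulin genes were among those lower. Ighm, the immunoglobulin mu heavy chain, was at 908 and 496 CPM in HSC and 136 and 206 CPM in MPP, without overlap, and per pan-blood count at 1031, 1092, 419 and 573, again without overlap. Its log2 fold change was -1.51 (SE 0.20) within the high libraries and -2.37 (SE 1.01) over all 12, where it did not pass. Igkc, the kappa light chain, was at 310 and 163 CPM in HSC and 27.1 and 133 CPM in MPP, and Jchain at 47.4 and 102 CPM in HSC and 5.44 and 24.9 CPM in MPP. Both lay lower in MPP in CPM, and both overlapped per pan-blood count. The natural killer receptor Ncr1 was at 19.7 and 10.3 CPM in HSC and 2.26 and 1.02 CPM in MPP, with a log2 fold change of -2.84 (SE 1.12) that did not pass. Of 12 B cell genes, 6 lay below HSC and 1 above in CPM, and 2 below and 2 above per pan-blood count. Of 11 genes of T and natural killer cells, 7 lay below and 0 above in CPM, and 4 below and 1 above per pan-blood count. The shares below are over those of all genes on both scales (20.9% and 3.03%). In Vav controls both lists summed to less in HSC than in MPP, 113 to 175 against 212 to 364 CPM for B cell genes. Lineage-positive cells were to be removed in the sort, and the part of such cells in these values was not tested.

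Plekhh2 (chr17:84511895-84622142, mm10), a protein of the actin skeleton known from kidney podocytes, had the smallest p within the high libraries. It was at 49.1 CPM in HSC replicate 1, 7186 CPM in HSC replicate 2, and 830 and 219 CPM in MPP. HSC replicate 1 lay below both MPP libraries, so the groups overlap once all 4 are used. It ranged from 4.68 to 11621 CPM over the other Mx1 libraries and was at most 0.94 CPM in Vav controls.

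**Figure D5:**
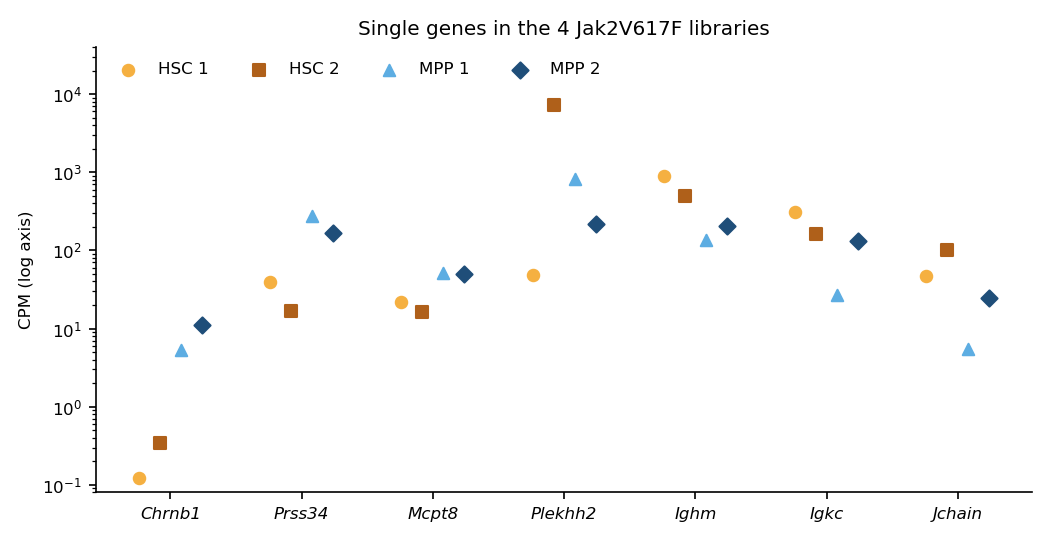
CPM (log axis) of 7 genes in the 4 Jak2V617F libraries, 1 marker per library. Chrnb1, Prss34 and Mcpt8 are higher in both MPP libraries than in both HSC libraries, and Ighm, Igkc and Jchain lower; Plekhh2 runs from 49.1 CPM in HSC replicate 1 to 7186 CPM in HSC replicate 2. The genes were chosen after their values were seen.

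The difference itself was tested against the other Mx1 genotypes. Between Jak2V617F and control, the change from HSC to MPP differed for 0 genes (edgeR; 755 at an unadjusted p under 0.05, 3.85%; 2 by the DESeq2 Wald test and 0 by limma-voom). Leaving out control HSC replicate 2 gave 95 genes, control HSC replicate 1 gave 2, and Jak2V617F HSC replicates 1 and 2 gave 1 and 5. Between the double mutant and Jak2V617F it differed for 3 genes (0.0153%, with 3.74% at an unadjusted p under 0.05), all with the larger change in the double mutant. Blvrb, biliverdin reductase B of red cell precursors, was at 332, 136, 97.6 and 133 CPM in Jak2V617F, a log2 fold change of -0.28 (SE 0.34). In the double mutant it was at 35.1 and 69.9 CPM in HSC and 150 and 758 CPM in MPP, higher in both MPP libraries, and the difference of the log2 changes was 3.14 (SE 0.49; edgeR adjusted p = 0.00397). Cd24a, the surface glycoprotein CD24, was at 620, 279, 217 and 257 CPM in Jak2V617F and gave a difference of 2.78 (SE 0.48; edgeR adjusted p = 0.0124). In Jak2V617F both lay below HSC in both MPP libraries in CPM and overlapped per pan-blood count, and in the double mutant both MPP libraries lay above both HSC libraries in CPM. The count was 0 without the heart term, under pan-blood scaling and when Jak2V617F MPP replicate 1 was left out, 1 without Jak2V617F MPP replicate 2, and 146, 15 and 27 without double-mutant HSC replicate 1, HSC replicate 2 and MPP replicate 1. Without Jak2V617F HSC replicate 2 it was 4, all in the other direction. Of the 42 genes that passed in the double mutant, 25 were higher (0.127%) and 17 lower (0.0867%) in MPP, and 6 of these 25 had a log2 fold change above 0 in Jak2V617F, with a median of -0.25.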

How the data were processed

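Per the labels, RNA of sorted HSC and MPP (3 to 5 ng) was made into libraries with a SMARTer Ultra Low kit. The submitters' processing notes name the build mm10 and, with no role given, the tools Partek 6.6, HTSeq 0.8.0, featureCounts 1.4.5 (from Subread) and STAR 2.0.4. Per the file headers, the deposited tables hold raw counts, CPM and RPKM per gene (41388 genes, 40254 with a symbol); the deposited CPM and RPKM were recomputed from the counts to check them. Counts were fitted in edgeR 4.0.16 (R 4.3.3; filterByExpr with 10 and 15 counts, TMM, robust quasi-likelihood, Benjamini-Hochberg at 0.05) over 12 Mx1 libraries in 6 groups of 2, with 1 term for libraries over 4% in the heart list; 12 Vav libraries were fitted apart. The SE is the log2 change over the square root of F. Alternatives used limma 3.58.1, DESeq2 1.42.0 and the settings named in the closing section. The pipeline was tested on simulated data.

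The members and lists were chosen with earlier results of these data known. Genes named were Jak2, Jarid2, the gate genes, and, as none passed, the 4 most abundant members of each list, of which a part is printed; others were chosen after their values were seen, as was the pan-blood list. Some single genes that counts include are not reported here. The labels give pools of 5 males and 5 females in one sentence and of 3 and 3 in the next, and call replicates biological. 8 chromatin samples were not analysed here. Counting error is small at these depths for abundant genes but not for genes of few counts, such as Chrnb1 in HSC. PCR copies are not independent molecules.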

Additional observations from a re-analysis of the deposited data

Results flagged for a closer look

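Blvrb and Cd24a differed between genotypes by the test of the difference itself: the change from HSC to MPP was larger in the double mutant than in Jak2V617F by 3.14 on the log2 scale for Blvrb (SE 0.49) and 2.78 for Cd24a (SE 0.48), with adjusted p of 0.00397 and 0.0124 in edgeR (n = 2 libraries per group). Double-mutant MPP replicate 2 held most red cell RNA of these libraries, with a summed level of 30770 CPM for the red cell list against 5952 CPM in MPP replicate 1 and 3320 and 5964 CPM in HSC replicates 1 and 2. Leaving that library out gave 3 genes, 2 with the larger change in the double mutant and 1 the other way. No group here has 4 or more libraries, so none could be screened for a library far from the others.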

How the results depend on the processing

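For Jak2V617F MPP against HSC, the count of 0 genes became 4 with no filter, 1 by the DESeq2 Wald test, 24 in the high heart libraries and 3 with the pool as a replicate block; leaving out 1 library gave 0 to 5. It was also 0 with DESeq2 size factors, a stricter filter of 20 counts, limma-voom, no heart term, a continuous heart term, heart sets at the largest gap, only the 4 libraries, both pan-blood scalings and the heart genes left out; the last 3 were chosen after seeing the data. For the difference from control, 0 became 6 with no filter, 2 by DESeq2 and 8 with the pool block, and 0 to 95 without 1 library; it has no value within the high heart libraries, where no control HSC library lies. For the double mutant against Jak2V617F, 3 became 71 with no filter, 1 with the stricter filter, 46 by DESeq2, 34 by limma-voom, 0 without the heart term, 1 with a continuous heart term, 87 in the high heart libraries, 65 with the pool block, 0 with either pan-blood scaling and 0 to 146 without 1 library. For Vav controls, 185 became 451 with no filter, 474 by DESeq2, 735 by limma-voom, 395 with only the 6 libraries and 61 to 102 without 1 library. The cause was not tested for any of these.

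With the replicate number as a block the counts were 0, 0 and 3 in the Mx1 fits and 125 in Vav controls. Numbers do not mark shared mice in the labels, and residuals of same-numbered HSC and MPP libraries correlated at 0.04, -0.02 and 0.52 in Mx1 control, Jak2V617F and double mutant and at 0.30, -0.01 and 0.03 in Vav controls, so the numbers were not taken to pair the samples.

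Of 129 named genes, 36 kept the sign of their log2 fold change in every setting; 34 changed it under pan-blood scaling, 21 without the heart term, 32 without HSC replicate 1 and 38 without HSC replicate 2. Pan-blood scaling moved the median of all genes by 0.25 on the log2 scale, and by 0.86 without the heart term. Where leaving out a library left 1 in a group, that library was assumed to vary like the others. Of the 2 HSC libraries 1 was low and 1 high in heart RNA, and both MPP libraries were high, so heart share and cell type are partly confounded. With 2 libraries per group, small differences were not detectable. Some large fitted ones did not pass either, such as Igkc at -3.83 (SE 2.79) and Ighm at -2.37 (SE 1.01). The count of 0 genes therefore does not show that large changes were absent.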
